A study of Mus musculus with 4 samples.

Results

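The genes described here are 10 transcripts used as markers of mouse embryonic stem (ES) cells: 4 of the developmental pluripotency associated genes (Dppa2, Dppa3, Dppa4 and Dppa5a) and Zfp42, Utf1, Fbxo15, Eras, Tcl1 and Zscan10. They were chosen by symbol, and all probe sets annotated to exactly 1 of these symbols were taken, which gave 13 of the 45101 probe sets of the array and 10 of 18193 named genes. Transcripts were read on 4 Affymetrix mouse arrays, 1 for each of 4 groups of ES cells. The first pair holds ES cells with a constitutive Ring1B knockout (KO), per their label, and the control of that line. The second pair holds ES cells with a double KO of Ring1A/B, made conditional with OHT and taken at day 4, and the control of that line. Both controls are labelled wild-type. Strain, clone, the driver of the recombinase and whether the second control received OHT are not given in the sources used here. Ring1A and Ring1B are the RING-finger ubiquitin ligases of Polycomb repressive complex 1, which keeps developmental genes silent.

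ES cells keep their undifferentiated state through a network of transcription factors around Oct4, Sox2 and Nanog, and many genes that depend on this network serve as markers because they are shut down soon after differentiation starts. Zfp42 (Rex1), Utf1 and Fbxo15 are classical targets of Oct4 and Sox2. The Dppa genes were named for being expressed together with Oct4 in early embryos and germ cells, although their products are unrelated in part. Dppa2 and Dppa4 are paired SAP-domain chromatin proteins, Dppa3 (Stella) protects DNA methylation in the zygote, and Dppa5a is an RNA-binding protein. Dppa3 and Zfp42 are known to be heterogeneous among the cells of an ES culture. In RNA from a whole culture, fewer cells expressing a gene and less RNA per cell cannot be told apart.

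The promoters of members whose signal differed most and that have an entry in the RefSeq promoter table (GRCm38.p6, 250 bases before to 50 after the start) are shown so that the sequence can be read beside the values; 5 of the 10 members had an entry. Capitals mark the octamer bound by Oct4 (ATGCAAAT), a Sox core (CATTGT) and the GC box of Sp factors (GGGCGG), each searched on both strands, with no overlap between different motifs in these sequences. Zfp42 lies at chr8:43306960-43307259 on the minus strand, Eras at chrX:7928558-7928857 on the minus strand and Zscan10 at chr17:23600576-23600875 on the plus strand.
Zfp42: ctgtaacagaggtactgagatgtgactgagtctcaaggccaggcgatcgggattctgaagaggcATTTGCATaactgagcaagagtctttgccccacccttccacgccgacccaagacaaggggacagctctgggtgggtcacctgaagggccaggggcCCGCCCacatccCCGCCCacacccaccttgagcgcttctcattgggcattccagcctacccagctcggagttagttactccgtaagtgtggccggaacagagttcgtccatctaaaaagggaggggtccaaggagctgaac
Eras: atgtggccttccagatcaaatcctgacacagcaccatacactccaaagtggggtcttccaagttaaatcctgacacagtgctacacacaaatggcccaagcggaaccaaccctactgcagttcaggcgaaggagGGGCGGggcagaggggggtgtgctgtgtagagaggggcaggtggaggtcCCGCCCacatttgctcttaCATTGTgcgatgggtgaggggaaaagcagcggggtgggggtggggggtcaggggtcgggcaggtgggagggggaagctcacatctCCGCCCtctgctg
Zscan10: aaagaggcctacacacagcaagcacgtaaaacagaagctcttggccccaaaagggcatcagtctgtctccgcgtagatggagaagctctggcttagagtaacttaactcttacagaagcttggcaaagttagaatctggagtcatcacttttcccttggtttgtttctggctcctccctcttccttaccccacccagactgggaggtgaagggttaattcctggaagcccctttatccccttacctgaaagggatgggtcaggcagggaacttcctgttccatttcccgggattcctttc
The octamer stands in the Zfp42 sequence as its reverse complement, ATTTGCAT, starting 186 bases before the start of transcription, and 1.74% of the 32851 promoters of this length hold it. The Eras sequence has a Sox core 48 bases before the start, found in 12.6% of promoters, and 3 GC boxes, found in 35.7%. No match to these letters stands in this window of Zscan10. Its ratio of observed to expected CpG dinucleotides, 0.215, was lower than that of Eras (0.31) and Zfp42 (0.441), and the median over all promoters was 0.384. Utf1 had the highest ratio of the 5 members with an entry, at 0.615, and 4 GC boxes, and Tcl1 had 0.462 and 2.

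Deposited signals had a trimmed mean of 500.0 on both arrays of the Ring1B pair and of 160 and 147 on the double KO pair, so each array was scaled to a common trimmed mean, and signals were floored at 36.6. Log2 signals of all probe sets correlated at 0.982 (Ring1B) and 0.973 (double KO) between the arrays of a pair and at 0.941 to 0.953 between arrays of different pairs. The targeted genes gave no check of the labels. At its brightest probe set Rnf2, which encodes Ring1B, differed by 0.11 between the Ring1B pair and by -0.14 between the double KO pair. Ring1, which encodes Ring1A, differed by 0.16 and 0.31, all on the log2 scale. Ring1 read 146, 164, 44.7 and 55.6 on the Ring1B control, Ring1B KO, double KO control and double KO arrays. It was thus near the floor on the double KO pair, and the control arrays differed by -1.71 for it. The source of that control difference was not tested. Whether those probe sets lie in the deleted parts is not known here, and every array is therefore named by its label, as Ring1B control, labelled Ring1B KO, double KO control and labelled double KO. The ES cell markers Pou5f1 (Oct4), Nanog, Sox2, Sall4 and Lin28a were bright on every array, with signals between 1793 (Lin28a) and 7581 (Pou5f1). With 1 array a group there is no replicate, no test across arrays was possible, and precision is limited by the number of arrays. The difference between the control arrays, drawn for all 10 members in the plot of differences and given in the text where a result turns on it, is the only measure here of how far control cultures differ; it also holds any difference between the pairs.

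**Figure D1:**
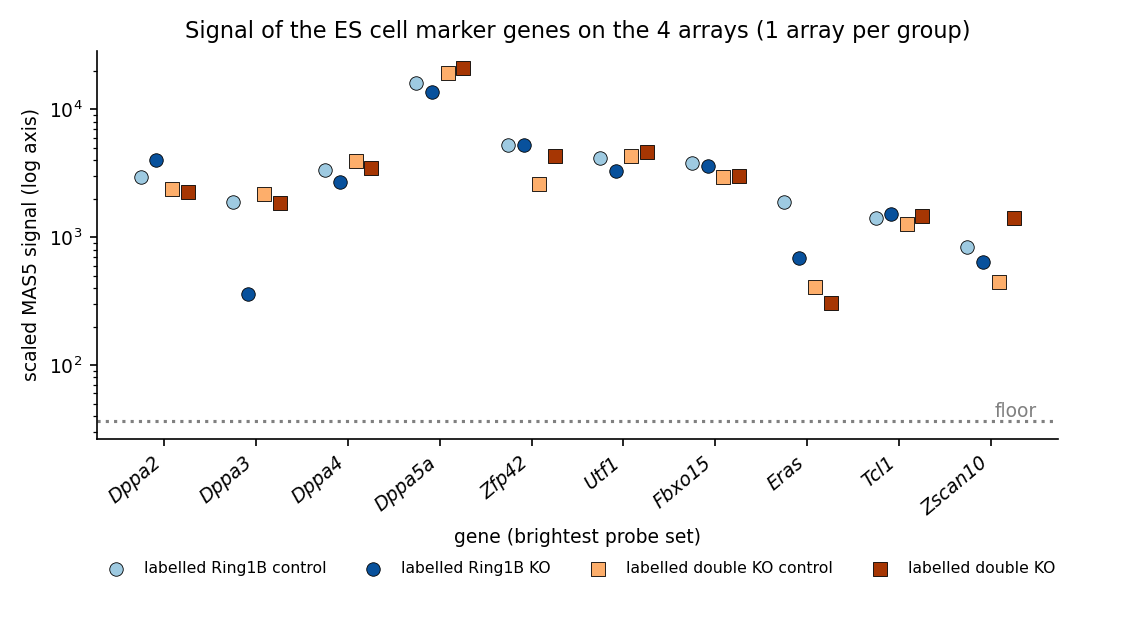
Scaled MAS5 signal of each marker gene at its brightest probe set (log axis) on the 4 arrays, 1 point per array; circles are the Ring1B pair and squares the double KO pair, and the dotted line is the floor of 36.6. All 10 genes lie above the floor on all 4 arrays, Dppa3 is low on the array labelled Ring1B KO alone, and Eras is highest on the labelled Ring1B control. Levels of different genes come from different probes and are not comparable.

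All 10 genes were expressed well above the floor on all 4 arrays, at a mean signal above that of at least 78.7% of named genes. Most of them differed by less than 1.5-fold between a knockout array and its control. On the array labelled Ring1B KO, 2 of 10 were at least 2-fold lower (Dppa3 and Eras) and 0 at least 2-fold higher, where 2.61% of 12343 genes above the floor were 2-fold lower and 3.54% higher. On the array labelled double KO, 1 of 10 was at least 2-fold higher (Zscan10) and 0 lower, where 3.02% of 12353 genes were higher and 9.99% lower. Between the control arrays 2 of 10 were at least 2-fold lower on the double KO side (Eras and Zfp42, the latter at -1.01, or -0.97 with quantile normalization) and 0 higher, where 8.15% of 12645 genes were lower and 12.2% higher. Bright genes differ less often, and among the 3875 genes at least as bright as the dimmest member these shares were 1.06% lower and 0.903% higher for the Ring1B pair and 2.89% lower and 1.81% higher for the double KO pair. In the Ring1B comparison 3 of 10 members lay inside the interquartile range of these bright genes (-0.21 to 0.17). In the double KO comparison 5 of 10 did (-0.17 to 0.27). The median log2 difference of the members was -0.28 in the Ring1B comparison, against -0.0172 over all genes tested and -0.0179 over the bright genes. In the double KO comparison it was 0.073, against -0.0547 and 0.0673, and was thus close to that of the bright genes. The median of the members in the double KO comparison turned to -0.0537 with the values as deposited.

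**Figure D2:**
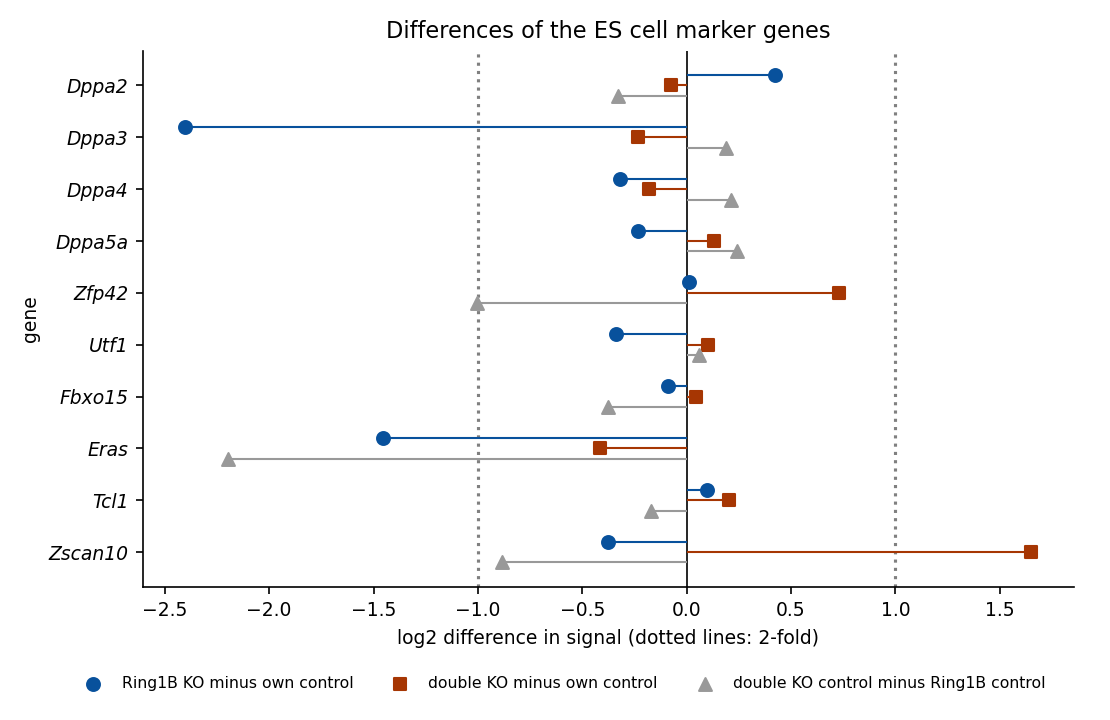
Log2 difference in signal of each marker gene for the array labelled Ring1B KO minus its control (circles), the array labelled double KO minus its control (squares) and the control arrays against each other (triangles), with dotted lines at 2-fold. Dppa3 (-2.40) is the only member whose knockout difference is past 2-fold against each of the control arrays, and the control difference of Eras (-2.20) is larger than both of its knockout differences.

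Among the Dppa genes, Dppa3 stood apart. The Ring1B control gave a Dppa3 signal of 1894 and the array labelled Ring1B KO 358, while the double KO control gave 2162 and its labelled double KO 1842. It was thus low on 1 array alone and alike on the other 3, which lay within 1.17-fold of each other. The Ring1B difference of -2.40 on the log2 scale (5.29-fold lower) was the 12th lowest of 12343 genes and the second lowest of the 3875 bright genes. Set against the double KO control instead it was -2.59, and the control arrays differed by 0.19. The double KO difference was -0.23, or 1.17-fold lower.

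Dppa2 and Dppa4 lie next to each other on chromosome 16, and their proteins act as a pair. They differed in opposite directions in the Ring1B comparison, and both were slightly lower in the double KO comparison. Dppa2 read 2958, 3972, 2358 and 2240 in the order Ring1B control, Ring1B KO, double KO control and double KO, and Dppa4 read 3370, 2700, 3909 and 3452. In the Ring1B comparison Dppa2 was higher by 0.42 and Dppa4 lower by a difference of -0.32, both under 1.5-fold. The control arrays differed by -0.33 for Dppa2 and by 0.21 for Dppa4. In the double KO comparison Dppa2 differed by -0.0743 and Dppa4 by -0.18. The other probe set of Dppa2 (1429654_at) gave the same directions, with 0.25 in the Ring1B and -0.14 in the double KO comparison against -0.0743 at the brighter one (1453223_s_at). Dppa5a, the brightest member, read 16066, 13666, 19012 and 20825, with differences of -0.23 and 0.13. Neither exceeded the control difference of 0.24, and whether so bright a probe set was near saturation was not assessed.

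Eras encodes a constitutively active Ras protein that drives growth of ES cells. It is measured by a single probe set of the _x_at type, which can match other transcripts. Its signal was highest on the Ring1B control (1879), followed by the array labelled Ring1B KO (686), the double KO control (410) and the labelled double KO (308). The level on the array labelled Ring1B KO was 2.74-fold lower than on its own control, a difference of -1.45 that was the 83rd lowest of 12343 genes. Against the other control array the same level was higher, by 0.74, since the control arrays themselves differed 4.58-fold. In the double KO comparison the difference was -0.41.

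Zscan10 (Zfp206), a zinc finger factor that supports expression of Oct4 and Nanog, and Zfp42, a zinc finger protein related to Yy1, had higher signals on the labelled double KO than on the double KO control. Zscan10 read 830 on the Ring1B control and 639 on the array labelled Ring1B KO, then 449 and 1411 on the double KO pair. The double KO array was the highest of the 4 and its control the lowest, a difference of 1.65 (3.14-fold), 116th highest of 12353 genes. Against the Ring1B control array it was 0.77, under 2-fold, so its size depends on the control array used. Zfp42 read 5243, 5292, 2611 and 4338 in the same order, and the double KO control was again the lowest. Its labelled double KO signal was 1.66-fold above the own control (0.73), below the Ring1B control (-0.27), and it differed by 0.0136 within the Ring1B pair.

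Utf1, a chromatin factor of undifferentiated cells, Fbxo15, an F-box protein of ubiquitin ligases that is dispensable for ES cells, and Tcl1, a co-activator of Akt, were under 1.5-fold apart in both knockout comparisons. Utf1 read 4159, 3289, 4331 and 4652 at its brightest probe set (1416899_at), with differences of -0.34 and 0.10. A dimmer Utf1 probe set (1443786_at) read 303, 201, 86.2 and 75.1, with -0.59 and -0.20, and the probe sets therefore differ in direction in the double KO comparison. That probe set also read 3.51-fold lower in the double KO control than in the Ring1B control, where the brightest one was 1.04-fold higher, and the third (1458333_x_at) was at the floor on all arrays. Fbxo15 read 3808, 3575, 2937 and 3026, and Tcl1 read 1421, 1518, 1264 and 1453. Over the 4 arrays Tcl1 varied least of all members, with 1.20-fold between the highest and the lowest array, followed by Fbxo15 at 1.30-fold, while Eras and Dppa3 varied 6.10-fold and 6.03-fold.

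**Figure D3:**
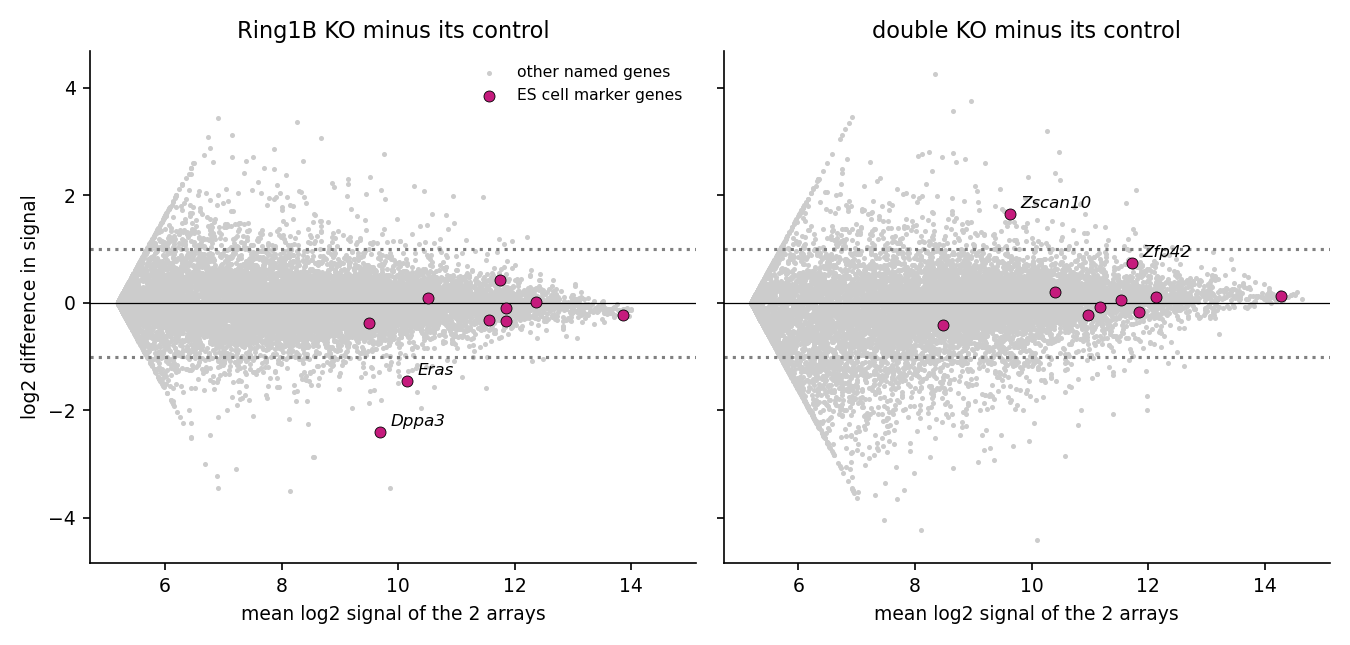
Log2 difference in signal against the mean log2 signal of the 2 arrays compared, for all named genes (grey) and the 10 marker genes (coloured), in the Ring1B pair (left) and the double KO pair (right), with dotted lines at 2-fold. The members lie on the bright side; Dppa3 and Eras fall below the lower line on the left and Zscan10 above the upper line on the right, and the diagonal edges are genes with 1 array at the floor.

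Genes whose pattern over the 4 arrays was nearest to that of Dppa3, Eras and Zscan10 were sought among 10301 other genes above the floor on all arrays, by the Euclidean distance between log2 signals centred on each gene's mean. For Dppa3 these were Trappc12 (distance 0.57), Rnf157 (0.60) and Pcsk1n (0.60), which differed by -1.99, -1.66 and -1.99 in the Ring1B comparison. On the array labelled Ring1B KO they read 67.0, 44.6 and 43.0, not far above the floor of 36.6, while Dppa3 read 358. For Eras the nearest genes were Tfap2c, a transcription factor of trophoblast and germ cell precursors (0.35), Enpp4 (0.44) and Tmem47 (0.56). For Zscan10 they were the cationic amino acid transporter gene Slc7a3 (0.12), Tmem126b (0.15) and Cds2 (0.19), with double KO differences of 1.66, 1.52 and 1.46. With 4 arrays such distances describe these arrays only. Among the members themselves the patterns of Dppa5a and Utf1 were nearest to each other (0.17) and those of Dppa3 and Eras farthest apart (3.03).

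Other genes of the Oct4 network were set beside the members. Of 25 such genes on the array, 6 were at least 2-fold higher in the double KO comparison and 0 lower, with a median of 0.63. They include Lefty1, a Nodal antagonist (7.01-fold, 535 to 3746), the orphan receptor gene Nr0b1 (4.88-fold, 649 to 3167) and the Polycomb gene Phc1 (3.61-fold, 1648 to 5955). All 3 were low on the double KO control, and against the Ring1B control the array labelled double KO differed by 0.70 for Lefty1, 0.35 for Nr0b1 and 0.50 for Phc1, each under 2-fold. In the Ring1B comparison 2 were higher (Lefty2 4.63-fold and Otx2 3.28-fold) and 2 lower (Mycn 2.09-fold and Phc1 2.01-fold), with a median of -0.14. Pou5f1, Nanog and Sox2 differed by -0.30, -0.13 and -0.65 in the Ring1B comparison and by 0.82, 0.27 and 0.82 in the double KO comparison. Of 16 other genes of the naive state, the ground state of mouse ES cells that Dppa3, Zfp42 and Tcl1 also mark, 5 were 2-fold higher in the double KO comparison, among them Pecam1 (6.51-fold) and Klf2 (4.29-fold), and Tbx3 was 2.08-fold lower. The same list had a median of -0.57 in the Ring1B comparison, with Pecam1 (2.49-fold) and Klf2 (2.32-fold) lower and Tbx3 (2.43-fold) higher. The lists share genes and their counts are not independent. Nr0b1 is counted on both the Oct4 network and naive lists, and Otx2 on both the Oct4 network list and the formative list described next.

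Of 16 genes of the later formative and primed states, 14 were measurable in the Ring1B comparison, with a median of 0.26. There Otx2 was at least 2-fold higher with both arrays above the floor, and Etv5 (2.02-fold) was lower. In the double KO comparison 4 of 15 were higher, among them Pim2 (6.84-fold), Dnmt3a (3.63-fold) and Zic5 (2.77-fold), and Sox4 was 2.20-fold lower. Germ cell genes, which Dppa3 accompanies in the embryo, went both ways. In the Ring1B comparison 6 of 15 were higher, led by Stk31 (7.28-fold), Mael (6.76-fold) and Dazl (4.55-fold), genes of the later germ line. Another 4 were lower, led by Ifitm1 (5016 to 1674), Prdm1 (2.33-fold) and Tfap2c (2.16-fold), genes of germ cell precursors. In the double KO comparison 3 of 16 were higher (Ifitm1 5.32-fold, Prdm1 4.10-fold and Ifitm3 2.00-fold) and 5 lower, led by Mael (6.34-fold), Piwil2 (4.93-fold) and Ddx4 (4.88-fold). Genes of the state resembling the embryo at the 2-cell stage, which Dppa2 and Dppa4 are known to promote, were mostly at the floor: 9 of 20 were named on the array and 4 measurable in each knockout comparison.

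Relatives and partners of the members mostly stayed under 2-fold. Of 15 measurable relatives 0 were 2-fold apart in the Ring1B comparison. Of 14 in the double KO comparison, Ooep was 2.23-fold higher and Khdc3 3.94-fold lower; both encode KH-domain proteins of the egg, like Dppa5a, which differed 1.10-fold. The Ras genes Nras and Rras, relatives of Eras, differed by -0.18 and -0.20 in the Ring1B comparison, and Tcl1b3, a Tcl1 relative, by -0.13. None of 6 ubiquitin ligase partners of F-box proteins was 2-fold apart in either comparison. Of 12 genes grouped under PI3K and Akt signalling, Pdk1 was 2.38-fold lower in the Ring1B and 2.70-fold higher in the double KO comparison, and Pik3r1 2.14-fold lower in the latter. In mouse nomenclature Pdk1 is a pyruvate dehydrogenase kinase and not the kinase that activates Akt. The calls of these list genes depended on the control array. Of the 15 list genes named for the Ring1B comparison, from the Oct4 network to PI3K signalling, Klf2 alone stayed at least 2-fold apart in the same direction against the double KO control (-1.03), and Otx2 turned to -2.45, Ifitm1 to 1.51 and Tfap2c to 1.15. Of the 20 named for the double KO comparison, 6 stayed so against the Ring1B control, namely Klf2 (1.92), Pim2 (1.63), Dnmt3a (1.03), Prdm1 (1.49), Ddx4 (-1.48) and Khdc3 (-1.96).

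**Figure D4:**
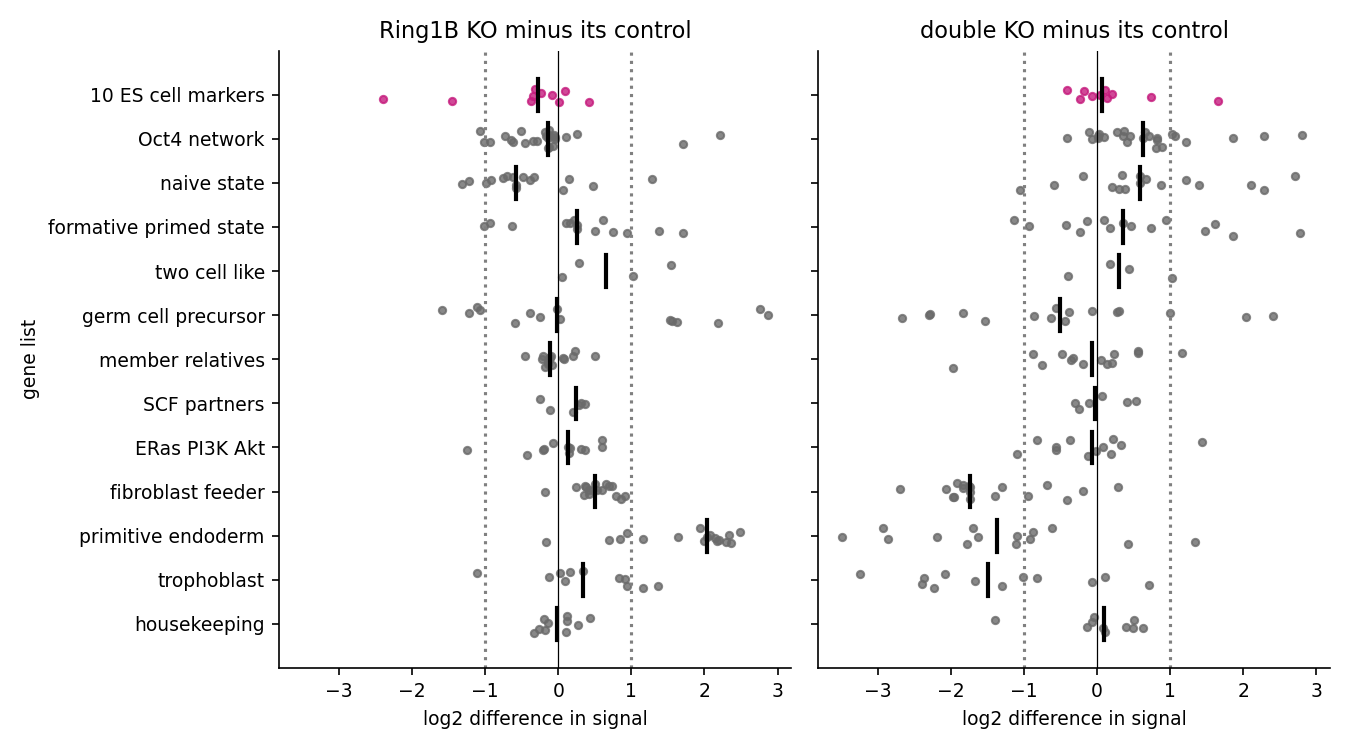
Log2 differences of the 10 markers (coloured) and of the genes of each list (grey) in the Ring1B comparison (left) and the double KO comparison (right), with a black bar at each median and dotted lines at 2-fold; genes with 1 array at the floor stand at their bound and genes with both at the floor are left out. Primitive endoderm genes mostly lie to the right in the Ring1B comparison (median 2.03). With fibroblast and trophoblast genes they lie mostly to the left in the double KO comparison, where Lama1 lies past 2-fold to the right. The marker medians are -0.28 and 0.073.

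Markers of other cell types moved with these comparisons. Over all genes above the floor, 3.54% were 2-fold higher and 2.61% lower in the Ring1B comparison. The shares were 3.02% higher and 9.99% lower in the double KO comparison. Of 17 measurable primitive endoderm genes, 13 were at least 2-fold higher on the array labelled Ring1B KO. Sox7 (5.58-fold), Sox17 (5.17-fold) and Amn (5.06-fold) led. Dppa3 and Eras were lower on that array than on the Ring1B control, while Eras was higher on it than on the double KO control. In the double KO comparison 9 of 14 were at least 2-fold lower, and Lama1 was 2.53-fold higher. Among those above the floor on both arrays, Col4a1 (7.58-fold), Col4a2 (7.26-fold) and Amn (4.56-fold) were lowest. The summed signal of the list was 10918, 32135, 15172 and 7333 in the order Ring1B control, Ring1B KO, double KO control and double KO. Of its 18 genes 3, 1, 4 and 9 were at the floor on these arrays. Afp was at the floor on all 4 and Hnf4a at or near it, while Foxa2 went from the floor on the Ring1B control to 168 on the array labelled Ring1B KO, Ttr from the floor to 59.3 and Cubn from 586 to 2632. Fibroblast genes, markers of a possible feeder layer, were at least 2-fold lower in the double KO comparison in 13 of 18 cases, with summed signals of 25798, 34087, 15869 and 10583, and with 1, 1, 0 and 2 of 18 genes at the floor; Lum was at or near it on all arrays. Trophoblast genes were lower there in 8 of 12 cases, with sums of 3025, 3749, 10514 and 2887. Of 14 genes 5, 3, 3 and 4 were at the floor, among them Elf5 on all arrays. The sums lean on a few bright genes. On the double KO control Krt18 read 5523 and Krt8 2293 in the trophoblast list, and Sparc read 7640 in the endoderm list. On the array labelled double KO, Fn1 gave 6222 of the fibroblast sum of 10583. Against the Ring1B control the median of the trophoblast list on the array labelled double KO was 0.10, so its lower values depend on the control array used. The source of this dependence was not tested. The part of these cell types in the differences of Dppa3, Eras, Zscan10 and Zfp42 was not tested. Of 10 housekeeping genes, B2m alone was 2-fold apart, 2.63-fold lower in the double KO comparison.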

How the data were processed

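The authors deposited a MAS5 signal per probe set, an intensity with no log taken; the tool is named in the submitters' processing notes, and its version and settings are not given in the sources used here. Each array was scaled so that its 2%-trimmed mean met a common 277, with factors of 0.554, 0.554, 1.73 and 1.89 for Ring1B control, Ring1B KO, double KO control and double KO. Signals were floored at 36.6, the 40th percentile, and log2-transformed, which shrinks differences of dim genes; no member's used probe set was at the floor. Of all probe sets, 34958 carried 1 gene symbol in the platform annotation, 932 several and 9211 none here. The probe set with the highest mean log2 signal stood for a gene, giving 18193 genes. A gene at the floor on both arrays has no difference. Each group is 1 array, grouped by its labels, and comparisons are log2 differences with no test; calls are differences of at least 2-fold. Named genes are the members, Pou5f1, Nanog and Sox2, up to 3 genes per list and direction at least 2-fold apart and off the floor on both arrays, and the 3 nearest patterns of each member past 2-fold. Where further list genes are named, as Nras, Rras, Tcl1b3, Afp, Hnf4a, Foxa2, Ttr, Cubn, Lum and Elf5, they were chosen after their values were seen. Members and lists were chosen with earlier results of these data known. List genes without a name on the array were not analysed here. Alternatives changed scaling, floor, probe sets, threshold and control array. The steps were tested on simulated data. Python 3.11.15 with pandas 2.3.3 and numpy 2.4.6 was used.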

Additional observations from a re-analysis of the deposited data

Results flagged for a closer look

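For 5 of the 10 genes the knockout arrays lay on opposite sides of their own controls. The share of all genes that did so was not computed, so this count has nothing to be set against. The double KO difference minus the Ring1B difference was 2.03 on the log2 scale for Zscan10 (1.65 against -0.38). With the control array of the other pair Zscan10 was higher in both comparisons, by 0.51 (Ring1B) and 0.77 (double KO). The value was -0.50 for Dppa2, 0.44 for Utf1, 0.36 for Dppa5a and 0.13 for Fbxo15, whose separate differences are all under 1.5-fold. The difference between the comparisons was not tested, since each group holds 1 array. With values as deposited Utf1 and Fbxo15 were lower in both comparisons, as was Fbxo15 under quantile normalization and Utf1 with the mean over its probe sets. Dppa2 was higher in both when arrays were scaled to a common median of the upper probe sets.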

How the results depend on the processing

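Under the planned scalings, floors and probe set rules the Ring1B difference of Dppa3 stayed between -2.40 and -2.37, that of Eras between -1.45 and -1.42 where it was measured, and the double KO difference of Zscan10 between 1.52 and 1.81. Each of these genes has a single probe set well above the floor, so the floors and the mean over probe sets could not change these values. Both Ring1B arrays were deposited at the same trimmed mean, so leaving out the scaling could not change their differences either. Without probe sets of the _s_at and _x_at types Eras has no value, and the count of lower members in the Ring1B comparison is 1. At 1.5-fold the count of higher members in the double KO comparison is 2, with Zfp42. The share of all genes at 1.5-fold was not computed, so this count has nothing to be set against. With values as deposited the median of the members is -0.0537 in the double KO comparison and -1.89 between the control arrays, where all 10 members are then lower; the median of the primitive endoderm list is -0.97 and that of the housekeeping list -0.0317. Scaling to the upper median turned the double KO medians of the relatives, ubiquitin ligase partners and PI3K lists to 0.0926, 0.14 and 0.0911, and the floor at either the 20th or the 60th percentile turned that of the relatives to 0.094. The floor at the 60th percentile put the Ring1B median of the 2-cell list at 0.055. With the mean over probe sets the double KO medians of fibroblast and primitive endoderm genes were -0.97 and -0.91.

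The control array of the other pair was tried after seeing the data. In the Ring1B comparison it left 1 lower member (Dppa3) and gave 1 higher (Zfp42), with a members' median of 0.27, and Eras turned to 0.74. In the double KO comparison it gave 1 lower member (Eras) and 0 higher, and Zscan10 was 0.77. Shares over all genes against the control of the other pair were not computed, so these counts have nothing to be set against. The Ring1B medians then were 0.38 for germ cell genes, 0.25 for relatives, -0.0318 for ubiquitin ligase partners, -0.70 for PI3K genes, 1.32 for primitive endoderm and -0.97 for trophoblast genes. The double KO medians were -0.17 for formative and primed genes, 1.03 for the 2-cell list, 0.77 for PI3K genes and 0.10 for trophoblast genes. The 2-cell median is the value of Usp17la, which read 74.7 on the array labelled double KO and was at the floor on the Ring1B control. No paired analysis was possible because each group holds 1 array. The cause of these shifts was not tested. Detection calls were not used here, and 1 array per group gives no error for any difference.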

Other observations

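Genes next to the members on the chromosome were looked at after the members' values were known, taking the 3 nearest protein-coding genes on each side in the RefSeq order of GRCm38.p6. Of 54 such neighbours 42 were named on the array. Dppa3 lies on chromosome 6 between Gdf3, a TGF-beta family ligand, and Nanog. On the array labelled Ring1B KO, where Dppa3 differed by -2.40, Gdf3 differed by -0.51, Apobec1 by -0.69, Nanog by -0.13, the glucose transporter gene Slc2a3 by -0.11 and Foxj2 by 0.84. On the array labelled double KO, Gdf3 was higher by 1.22 and Apobec1 by 0.89 and Foxj2 was lower at -1.13, while Dppa3 differed by -0.23. Next to Dppa2, the ATPase gene Morc1 had a signal of 2245 on the Ring1B control, of 2309 with the Ring1B KO label, of 408 on the double KO control and of 1338 with the double KO label. Its double KO difference was 1.71, where Dppa2 differed by -0.0743. Pcsk1n, the neighbour of Eras on chromosome X, was lower by -1.99 on the array labelled Ring1B KO and higher by 0.42 on the array labelled double KO. Its signal on the array labelled Ring1B KO was 43.0, near the floor. Of 30 neighbours measurable in the Ring1B comparison 2 were at least 2-fold lower and 1 higher, and of 31 in the double KO comparison 2 were lower and 5 higher. Over all genes above the floor, 2.61% were lower and 3.54% higher in the Ring1B comparison. The shares were 9.99% lower and 3.02% higher in the double KO comparison.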
